A study of Mus musculus with 24 samples.

Results

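B16F1-GFP-DB#2, called DB#2 here, is a mouse melanoma line of a second generation that the study took from a brain site in its dormancy model, and B16F1-GFP-M, called M, is the parental B16F1 melanoma line; both lines carry green fluorescent protein (GFP). The comparison used the 6 arrays whose labels name these lines, 3 of DB#2 and 3 of M, out of 24 arrays of 7 cell lines, and the question was how the transcriptome of this brain-site line differed from that of the parental cells. Dormant cells of the model came from syngeneic mice vaccinated with irradiated melanoma cells that overexpress GM-CSF, after which surviving cells were recovered, amplified in vitro and frozen. The arrays therefore measured cells cultured in DMEM with 10% fetal bovine serum, with no drug treatment named, and not tissue. DB#2 is 1 line, and the labels do not say whether its 3 arrays came from separate cultures. The p-values rest on the spread between arrays within a line, estimated over all 24 arrays, and this spread may be technical. Other melanoma lines served only to place DB#2: B16F1-GFP-D (D, 4 arrays), recovered from the first dormancy, and the other brain-site lines B16F1-GFP-DB#1 (4 arrays) and B16F1-GFP-DB#3 (3 arrays), all with GFP and grown in the same medium.

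Each array was a single-colour Agilent mouse expression array hybridised with Cy3-labelled total RNA. The normalized signal is the log2 of a probe's processed intensity less the 75th percentile of its array, so that 0 is a bright but common level and a difference of 1 is 2-fold. Levels of different genes are not compared, because probes differ in brightness. Between 51.4% and 55.3% of the probes were well above background on the 6 arrays of DB#2 and M. One array outside the comparison, D replicate 3, stood apart with 90.4%, and it contributed to the common estimate of the spread. Every slide held 1 array of DB#2 and 1 of M.

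B16F1 cells are pigmented melanoma cells, and their identity rests on transcription factors such as Mitf and Sox10, which drive the melanin enzymes. Tumour cells also carry the interferon system. Double-stranded RNA or DNA in the cytosol is sensed by proteins such as RIG-I (Ddx58), secreted interferon signals through receptors to a transcription factor complex with Stat2 and Irf9, which binds a short element in the promoters of interferon-stimulated genes, among them Irf7, the Oas enzymes and the Ifit proteins. In melanoma this program is known for its part in recognition of tumour cells by the immune system.

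DB#2 expressed the melanocyte markers of the parental line. All 12 melanocyte markers were read on every array of both lines and 0 of the 12 passed the test in either direction. Their median difference was 0.03, with a range from -0.97 to 0.28. With 3 arrays of each line, the lack of a call does not show that levels were equal. Mitf differed by 0.16 ± 0.31 (log2, SE), Sox10 by -0.09 ± 0.14, Tyrp1 by 0.00 ± 0.14 and Dct by 0.08 ± 0.14. Of the wider list of 20 pigment and melanosome genes none was called, and the furthest from 0 was Kcnj13, a potassium channel of pigment cells, at -1.45 ± 0.58 (adjusted p = 0.184 by limma).

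Against M, 1113 of 20951 genes tested (5.31%) passed limma's moderated test after Benjamini-Hochberg adjustment at 0.05, and these are the genes described as called. Higher in DB#2 were 653 genes (3.12%) and lower were 460 (2.2%). A change of at least 2-fold was found for 373 of the higher and 185 of the lower genes. The difference had the same sign on all 3 slides for 1111 of the called genes, and 1047 of them had no overlap between the 3 DB#2 and the 3 M values, against 4500 of all genes tested. The median difference over all tested genes was 0.02. The larger changes went mostly up: 78 of the called genes rose at least 8-fold and 16 fell by as much.

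Where both lines gave a readable signal throughout, the largest rise was that of Ldhd, the mitochondrial enzyme that oxidises D-lactate, the end product of methylglyoxal detoxification. Its normalized log2 signal was -3.52, -3.60 and -3.85 on the 3 M arrays and 1.67, 1.77 and 1.84 on the 3 DB#2 arrays. The lines were far apart and the arrays within a line close together, and the rise came to 5.42 ± 0.23 (log2, SE, n = 3 arrays of each line, 42.8-fold, adjusted p = 2.93e-11). Car2, a cytosolic carbonic anhydrase that interconverts carbon dioxide and bicarbonate, stood at -3.53, -4.05 and -3.82 in M and at 0.31, 0.00 and -0.10 in DB#2, a rise of 3.87 ± 0.36 (adjusted p = 1e-06). Fscn1, which bundles actin filaments in protrusions, went from -2.74, -2.81 and -3.04 to 0.97, 1.19 and 0.87, likewise a rise of 3.87 but with a smaller error (± 0.16, adjusted p = 2.6e-11). Against the same M arrays, Ldhd differed by 3.85 in DB#1, 4.05 in DB#3 and 2.40 in D, and Fscn1 by 3.52, 3.52 and 3.25, all called. Car2 was called in none of these lines. None of the 12 leading rises showed any overlap between DB#2 and M, as the rule for naming them requires.

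**Figure D1:**
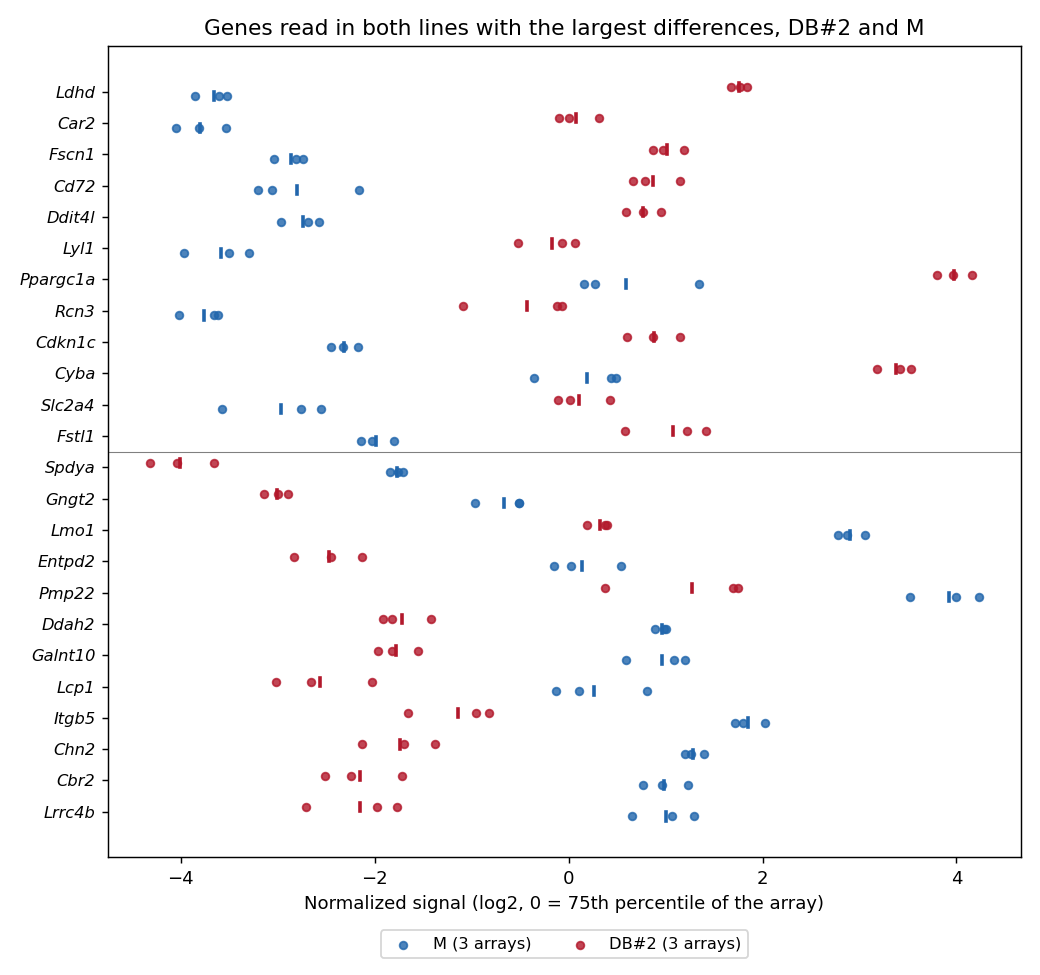
Normalized log2 signal (x axis) of the 12 largest rises and 12 largest falls among genes readable on all 6 arrays, with 1 point per array, M in blue and DB#2 in red, and a tick at each line's mean. Ldhd shows the widest gap, from a mean of -3.66 in M to 1.76 in DB#2, and no gene has overlapping points because the naming rule required this.

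The other leading rises were of regulators, surface proteins and metabolic genes. Cdkn1c, the cyclin-dependent kinase inhibitor p57, was at -2.45, -2.33 and -2.17 in M and at 0.60, 1.15 and 0.87 in DB#2, a rise of 3.19 ± 0.51 (adjusted p = 0.000533). Ppargc1a, a coactivator that drives mitochondrial biogenesis, was at 1.35, 0.27 and 0.16 in M and at 4.16, 3.96 and 3.80 in DB#2, a rise of 3.38 ± 0.39 (adjusted p = 1.6e-05). Ddit4l, a relative of the mTORC1 inhibitor Ddit4, rose by 3.51 ± 0.35 from -2.58, -2.97 and -2.69 to 0.77, 0.95 and 0.59. M replicate 1 lay above the other M arrays for Ppargc1a, and the DB#2 arrays still lay well above it. Cd72, a lectin best known from B cells, rose by 3.68 ± 0.31, and Lyl1, a basic helix-loop-helix factor of blood lineages, by 3.41 ± 0.55. The rises of Rcn3, a calcium-binding protein of the endoplasmic reticulum, of Cyba, the small membrane subunit of the phagocyte NADPH oxidase, of the insulin-responsive glucose transporter gene Slc2a4, and of Fstl1, a secreted glycoprotein, lay between 3.07 and 3.34 (adjusted p between 1.21e-08 and 0.000131). Rcn3, Cyba, Slc2a4 and Fstl1 were also called higher than M in D, DB#1 and DB#3, and Cd72 in DB#1 and DB#3. Cdkn1c, Ppargc1a, Ddit4l and Lyl1 were called higher than M in none of these lines.

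Among the falls, the largest was that of Lrrc4b, a synaptic adhesion molecule. The M arrays read 1.29, 0.66 and 1.06 and the DB#2 arrays -2.70, -1.77 and -1.98, so that Lrrc4b fell by 3.15 (SE 0.25, adjusted p = 1.42e-07). Cbr2, a mitochondrial carbonyl reductase, read 1.23, 0.77 and 0.96 in M and -2.24, -1.72 and -2.51 in DB#2, and its probes gave differences of -3.14 and -1.94 (adjusted p = 0.000781 for the brighter one). Chn2, a GTPase-activating protein for Rac, went from 1.26, 1.20 and 1.40 to -1.38, -1.69 and -2.13 (-3.02 ± 0.16, adjusted p = 4.55e-10). Integrin beta 5 (Itgb5), which pairs with alpha v to bind vitronectin, differed by -2.99 ± 0.50 (adjusted p = 0.000876), with DB#2 replicate 1 the lowest at -1.66 and the other DB#2 arrays at -0.82 and -0.96. The remaining leading falls were those of Lcp1, the actin bundler plastin of blood cells (-2.82 ± 0.49), Galnt10, a glycosyltransferase that starts mucin-type O-glycans (-2.74 ± 0.16), Ddah2 (-2.68 ± 0.24), the myelin protein gene Pmp22 (-2.65 ± 0.35), the ATP-degrading ectoenzyme gene Entpd2 (-2.62 ± 0.38), the LIM-domain regulator Lmo1 (-2.58 ± 0.18), the G-protein subunit gene Gngt2 (-2.35 ± 0.25) and the CDK activator gene Spdya (-2.23 ± 0.47, adjusted p = 0.00678). All 12 falls were seen on each of the 3 slides, which follows from the naming rule, since it allows no overlap between the lines. For Pmp22, DB#2 replicate 1, at 0.37, lay below the other DB#2 arrays at 1.70 and 1.74, and for Ddah2 the 3 M arrays lay between 0.89 and 1.00.

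Some genes were read in 1 of the lines only. Well above background on every DB#2 array and on no M array were 214 genes, 136 of them with a gene symbol and 82 of these called; the reverse held for 42 genes, 29 with a symbol and 26 of these called. Such genes have only a bound in the dim line, and the bound compares the bright line's mean with the lowest level that could be read in the dim one. By this measure Myl9, the regulatory light chain of smooth muscle and non-muscle myosin, was at least 34.9-fold higher in DB#2 (adjusted p = 3.54e-10), with DB#2 arrays at 0.76, 1.10 and 0.71. Mrap, an accessory protein of melanocortin receptors, was at least 34.5-fold higher (DB#2 arrays at 1.01, 0.78 and 0.67, adjusted p = 5.88e-07). Capn6, a calpain-like protein without protease activity, was at least 23.1-fold higher, Emilin1, an elastic-fibre glycoprotein, at least 22.1-fold (DB#2 arrays at 0.11, 0.21 and 0.21, adjusted p = 3.63e-13) and the kinase gene Rps6ka6 at least 18.5-fold. Against the same M arrays, Myl9 differed by 6.03 in DB#1, 6.40 in DB#3 and 5.18 in D, and Emilin1 by 6.10, 5.85 and 5.10. Capn6 was also called higher than M in DB#1 and DB#3, and Mrap in DB#1. Rps6ka6 was read on no array of D, DB#1 or DB#3. In the other direction Ece1, the protease that matures endothelin, was read at -0.06, -0.59 and -0.35 in M and on no DB#2 array, and it was at least 17.5-fold lower (adjusted p = 2.71e-10). Dpysl5, of the collapsin response mediators, was at least 9.21-fold lower by its brightest probe (adjusted p = 7.84e-05), but its probes ranged from -4.25 to -0.46. Qpct, which forms N-terminal pyroglutamate, was at least 8.32-fold lower, the endosomal sorting gene Nsg1 at least 5.73-fold and the homeobox gene Cux2 at least 5.38-fold (adjusted p between 6.75e-10 and 0.000149).

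Among the pathway lists, that of the interferon-stimulated genes had the largest share of members called higher. Of 46 genes listed, 39 could be tested, and 18 of the 39 rose in DB#2 while 0 fell, beside 3.12% called higher and 2.2% called lower over all genes tested. The median difference of the 39 was 0.85, beside 0.02 over all genes, and 33 of the 39 lay above 0. Genes for the sensor Ddx58 (RIG-I), for the signalling factor Irf9, for the transcription factor Irf7 that amplifies the response, and for the effectors Oas1a, Ifit3 and Igtp were among the 18. Irf7 read -0.58, -0.69 and 0.05 in M and 1.27, 1.34 and 1.58 in DB#2, a rise of 1.80 ± 0.24 (adjusted p = 6.59e-05). Ddx58 read 0.70, 0.99 and 1.35 in M and 2.47, 2.80 and 2.82 in DB#2 (1.68 ± 0.21, adjusted p = 2.79e-05). Neither gene overlapped between the lines.

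Promoters are shown for 3 called members, those with the largest change among the called members whose promoters hold the interferon element. The element was searched as GAAANNGAA on both strands in the 300 bases from 250 before to 50 after each start site, with sequences from RefSeq on build GRCm38.p6, and its match is in capitals. Igtp, an interferon-inducible GTPase, lies on the plus strand at chr11:58199306-58199605. Ddx58 is on the minus strand at chr4:40239776-40240075 and its match reads on the opposite strand, and Oas1a, an enzyme that makes 2-5A from ATP on double-stranded RNA, is on the minus strand at chr5:120907476-120907775 and has overlapping matches, which are joined in 1 run of capitals. Each is printed in the direction of its gene.
Igtp: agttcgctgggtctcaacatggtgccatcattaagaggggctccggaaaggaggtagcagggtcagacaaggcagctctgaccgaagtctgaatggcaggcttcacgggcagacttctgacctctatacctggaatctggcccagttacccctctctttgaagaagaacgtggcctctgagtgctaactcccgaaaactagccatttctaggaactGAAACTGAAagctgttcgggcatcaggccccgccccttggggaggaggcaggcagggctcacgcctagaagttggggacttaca
Ddx58: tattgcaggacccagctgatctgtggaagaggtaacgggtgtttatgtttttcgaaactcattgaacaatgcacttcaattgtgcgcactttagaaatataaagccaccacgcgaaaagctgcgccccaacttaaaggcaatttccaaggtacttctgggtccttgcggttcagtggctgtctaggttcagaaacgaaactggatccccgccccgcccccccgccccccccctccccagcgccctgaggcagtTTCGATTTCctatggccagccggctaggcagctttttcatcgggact
Oas1a: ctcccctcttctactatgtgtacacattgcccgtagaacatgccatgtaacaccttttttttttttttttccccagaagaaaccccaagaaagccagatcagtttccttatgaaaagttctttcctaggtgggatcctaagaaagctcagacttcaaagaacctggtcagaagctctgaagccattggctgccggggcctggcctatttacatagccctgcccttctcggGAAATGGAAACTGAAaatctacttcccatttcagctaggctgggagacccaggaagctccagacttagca

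Of all 32851 promoters, 8.56% held the element, and counted by gene 9.76% of 27025 did. Among the called interferon-stimulated genes with a promoter in the table, 8 of 14 held it, and among those tested, 18 of 31. A match is a description of the letters and not a measured binding site. Igtp, whose promoter has 1 match, read -2.28, -1.76 and -1.57 in M and -0.63, -0.01 and 0.37 in DB#2, a rise of 1.78 ± 0.27 (adjusted p = 0.000259). Oas1a read 2.43, 2.72 and 2.95 in M and 3.96, 4.19 and 4.43 in DB#2 (1.49 ± 0.27, adjusted p = 0.00205). For both genes every DB#2 array lay above every M array. Oas1a, Oas1c and Oas1f are close paralogs whose probes may share signal, so their rises of 1.49, 1.30 and 1.41 are not independent readings.

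The rest of the pathway moved unevenly. Rtp4, a chaperone of receptors that interferon induces, rose most among members read on every array (2.26 ± 0.25, adjusted p = 7.43e-06), from -1.11, -0.70 and -0.57 in M to 0.99, 1.42 and 2.00 in DB#2. Usp18, the protease that removes Isg15 from proteins and restrains the interferon receptor, rose by 2.11 ± 0.27 from -1.90, -1.67 and -1.57 to -0.16, 0.54 and 0.82. Irf9 rose by 1.26 ± 0.13 (adjusted p = 4.3e-06), while its partner Stat2 differed by 0.28 ± 0.21 (adjusted p = 0.546). The M readings of Irf9, at 0.83, 0.96 and 1.31, lay below all DB#2 readings at 1.92, 2.52 and 2.42. The smaller called rises included the ubiquitin ligase gene Trim25 at 0.85 ± 0.12, Ifi35 at 0.69 ± 0.17 and the GTPase gene Irgm1 at 0.41 ± 0.11 (adjusted p = 0.039). Oasl1 had the highest fitted value of the list, 2.52 ± 0.64 (adjusted p = 0.0235), but it was read on 1 of the 3 M arrays, its probes ranged from 0.58 to 2.52, and the call was lost when any 1 of the 6 arrays was left out. Several familiar members did not pass: Isg15 at 0.81 ± 0.40 (adjusted p = 0.296), Ifit1 at 1.39 ± 0.41 (0.0551), Xaf1 at 1.31 ± 0.40 (0.0654), Rsad2 at 0.10 ± 0.17, Irf1, which interferon gamma induces, at -0.08 ± 0.25, and Cmpk2, the lowest, at -0.48 ± 0.30. Under the 20 other settings of the analysis 12 to 25 members rose and 0 fell.

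The interferon-stimulated genes also set DB#2 apart from the other dormancy-derived lines. The mean level of the 39 tested members was 0.54, 0.74 and 0.92 on the DB#2 arrays and -0.30, -0.15 and -0.03 on the M arrays. It lay between -0.74 and -0.67 on the 4 DB#1 arrays, between -1.18 and -0.91 on the 3 DB#3 arrays and between -1.08 and -0.52 on the 4 D arrays, so that every DB#2 array was above M and every array of the other 3 lines was below it. In the direct test of DB#2 against the mean of DB#1 and DB#3, in which 11.9% of 21263 genes were called, 29 of the 39 members were higher in DB#2 and 0 lower, with a median difference of 1.58. Against D, where 11.5% of 20651 genes were called, 30 of 39 were higher and 0 lower, with a median of 1.55. Against the same 3 M arrays, 0 members rose and 16 fell in DB#1, 1 rose and 17 fell in DB#3, and 1 rose and 19 fell in D, where 5.62%, 3.93% and 5.38% of all genes were called. These contrasts share the M arrays with that of DB#2. Among individual genes, Usp18 was 3.64 higher in DB#2 than in DB#1 and DB#3 (adjusted p = 3.58e-09, read on 2 of 3 DB#3 arrays) and Xaf1, a pro-apoptotic interferon target, 3.07 higher (adjusted p = 5.9e-06). Irgm2, another interferon-inducible GTPase outside the list, was 3.43 higher in DB#2 than in DB#1 and DB#3 and 1.92 ± 0.33 higher than in M (adjusted p = 0.000955).

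**Figure D2:**
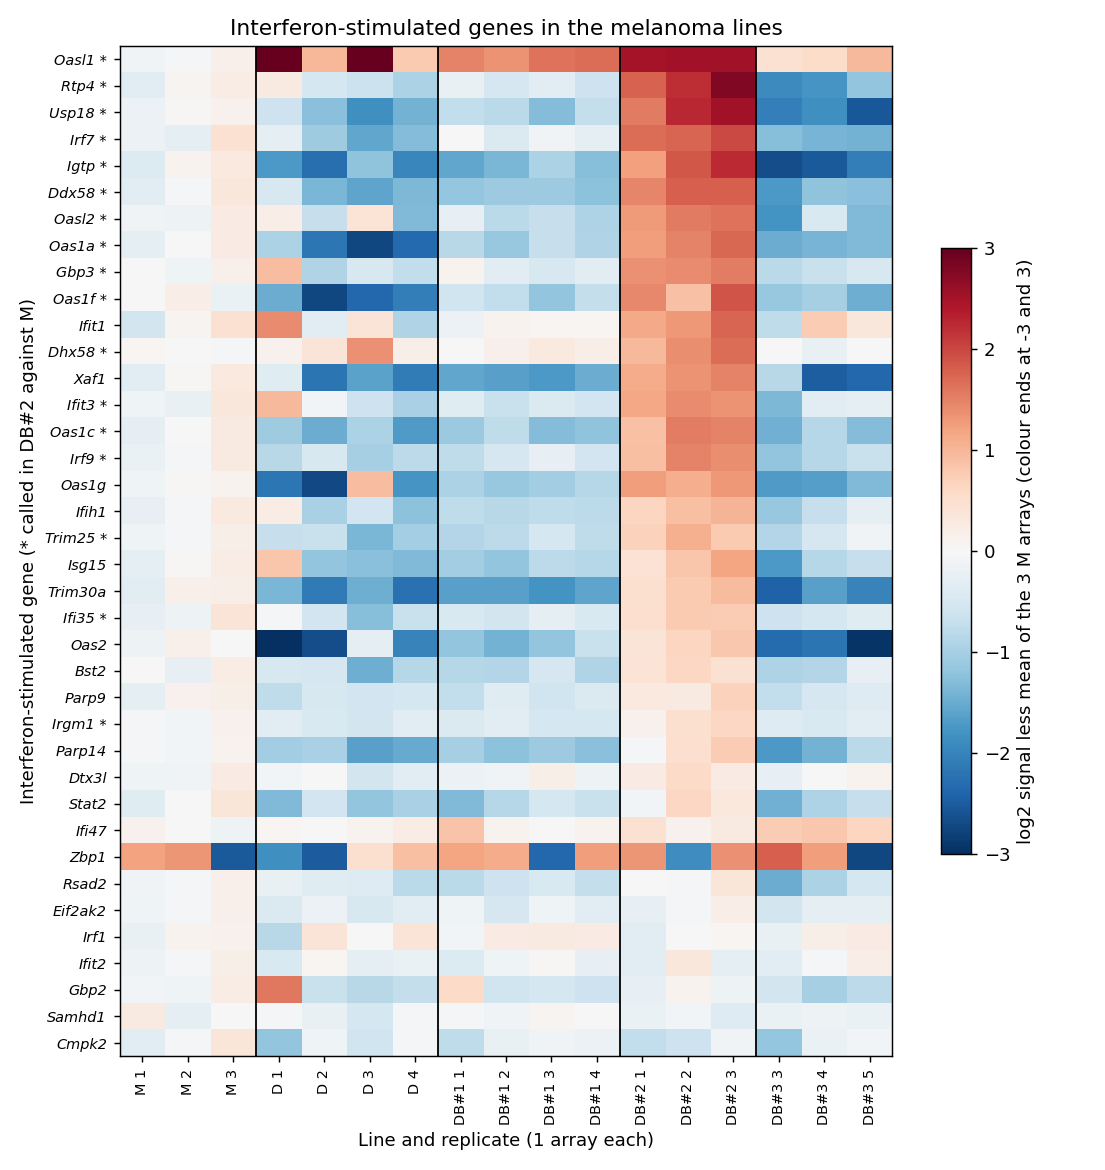
Of the tested interferon-stimulated genes, 38 (rows, a star marks the 17 of these called in DB#2 against M) on the 17 melanoma arrays (columns), coloured by log2 signal less the mean of the 3 M arrays, with the colour scale ending at -3 and 3. The DB#2 columns are red for most genes down to Stat2, whereas the D, DB#1 and DB#3 columns are mostly blue for the same rows, with exceptions such as Oasl1 and D replicate 1 for Ifit1.

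Class I antigen presentation did not move as a group beside this. Of 16 members tested, 1 rose and 1 fell, beside 3.12% called higher and 2.2% lower over all genes tested. Psmb10, an immunoproteasome subunit, rose by 0.65 ± 0.15 (adjusted p = 0.015), and Erap1, the peptidase that trims peptides in the endoplasmic reticulum, fell by 0.90 (SE 0.18, adjusted p = 0.00443). H2-K1 differed by 0.33 ± 0.24, H2-D1 by 0.36 ± 0.37, B2m by 0.17 ± 0.21 and Tap1 by 0.58 ± 0.30, and none of these passed the test. In the list of immune checkpoint genes, 2 of 13 rose, Cd72 and Lgals9 (galectin 9, 0.84 ± 0.21, adjusted p = 0.0245), and Cd274, the gene of PD-L1, differed by 0.17 ± 0.22.

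Secreted signals changed in both directions, with 3 of 13 tested chemokines and cytokines higher and 3 lower. Among all genes tested, 3.12% were called higher and 2.2% lower. Il18, a cytokine that prompts interferon gamma production, read 0.84, 0.52 and 0.82 in M and 2.36, 2.38 and 2.26 in DB#2, a rise of 1.60 ± 0.26 (adjusted p = 0.000674). Cx3cl1, the membrane-bound chemokine fractalkine that microglia and other Cx3cr1 cells respond to, read -2.32, -2.68 and -2.36 in M and on no DB#2 array well above background, at least 4.02-fold lower (adjusted p = 1.62e-06). Cx3cl1 differed from the same M arrays by 0.50 in DB#1, 0.81 in DB#3 and 1.38 in D, and DB#2 lay 3.79 below the mean of DB#1 and DB#3 (adjusted p = 1.1e-08). Ctf1, cardiotrophin 1 of the gp130 cytokines, was read in DB#2 and on no M array. It was at least 1.49-fold higher than in M, yet 3.1 lower than in DB#1 and DB#3 (adjusted p = 4.2e-11). Spp1 (osteopontin) rose by 1.56 ± 0.30 from -1.77, -2.29 and -2.15 to 0.05, -0.76 and -0.81. Csf1 fell by 0.96 (SE 0.13, adjusted p = 0.000124), and the fall of Il33 by 1.96 (SE 0.54, adjusted p = 0.0409) ranged from 0.19 to 3.54 in size between slides and was lost in 5 of the 6 fits that left out an array.

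Energy metabolism changed at single steps. The counts below stand beside 3.12% called higher and 2.2% lower over all genes tested. Of 19 genes for lactate, pyruvate and methylglyoxal 2 rose and 0 fell, and beside Ldhd this was Ldhb, the lactate dehydrogenase subunit of oxidative tissues, with 4.91, 4.61 and 4.97 in M against 6.36, 6.72 and 6.25 in DB#2 (1.61 ± 0.14, adjusted p = 5.88e-07). The 3 DB#2 values lay well above M, and Ldhb was also 1.21 above DB#1 and DB#3 (adjusted p = 1.8e-06). Of 26 glycolytic and pentose phosphate genes 2 rose and 1 fell. Pfkp, the platelet type of phosphofructokinase, read 2.81, 2.48 and 2.28 in M and 4.74, 4.45 and 4.53 in DB#2 (2.05 ± 0.35, adjusted p = 0.000962). Hk1, the hexokinase bound to mitochondria, rose by 1.62 ± 0.23 at its brightest probe, but its probes ranged from -0.06 to 1.62, and Pfkfb4 fell by 0.73 (SE 0.15, adjusted p = 0.00495). None of 17 hypoxia-response genes was called, with Vegfa at -0.48 ± 0.37 and Car9, the hypoxia-induced carbonic anhydrase, at 0.40 ± 0.26. The other carbonic anhydrases split: beside Car2, Car8 rose by 2.88 ± 0.35 (read on 2 of 3 M arrays, adjusted p = 2.81e-05) and Car6 by 1.10 ± 0.27, while the membrane-bound Car14 fell by 0.59 (SE 0.14, adjusted p = 0.015). Car6 rose by 2.19 on slide 2 and by 0.11 on slide 3.

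Detoxifying enzymes gave some of the larger changes. Gsta4, the glutathione transferase for the lipid peroxidation product 4-hydroxynonenal, read -4.18, -4.22 and -5.43 in M, where it was read well above background on 1 array, and 0.85, 0.11 and 0.11 in DB#2 (4.97 ± 0.34, adjusted p = 1.67e-08). Values of D, DB#1 and DB#3 against the same M arrays were 4.70, 4.50 and 4.76, and DB#2 did not pass the test against DB#1 and DB#3 (0.34, adjusted p = 0.55). Gstt1 fell by 1.60 (SE 0.31, adjusted p = 0.00319) and Gstm1 by 1.26 (SE 0.29, adjusted p = 0.0121), whereas Mgst3 rose by 0.89 ± 0.15 and Sod2, the mitochondrial superoxide dismutase, by 0.67 ± 0.17. In all, 3 of 23 members of this list rose and 2 fell, beside 3.12% called higher and 2.2% lower over all genes tested. Of 22 carbonyl and aldehyde genes 3 rose and 2 fell. Dhrs2 rose by 2.06 ± 0.24 (adjusted p = 1.77e-05) and Aldh1a3, which makes retinoic acid from retinal, by 1.88 ± 0.26 (adjusted p = 0.00013). Dhdh, a dihydrodiol dehydrogenase, was read in DB#2 and on no M array, and it was at least 2.46-fold higher than in M. It was also read on every array of D, DB#1 and DB#3, and DB#2 was 1.30 below DB#1 and DB#3 (adjusted p = 0.00043).

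The collagen-processing genes Fkbp10 and Rcn3 were higher in DB#2 than in M and lower than in the other brain-site lines. Of 18 collagen and collagen-chaperone genes 2 rose and 0 fell, beside 3.12% called higher and 2.2% lower over all genes tested. Fkbp10, a prolyl isomerase that folds procollagen, read -3.15, -3.87 and -3.56 in M and -0.89, -0.92 and -1.64 in DB#2, a rise of 2.38 ± 0.34 (adjusted p = 0.000137). It read 2.70 to 3.42 on the 4 DB#1 arrays and 2.87 to 3.07 on the 3 DB#3 arrays, and DB#2 was 4.14 below their mean (adjusted p = 1.3e-08). Rcn3 followed the same order, 2.04 below DB#1 and DB#3 (adjusted p = 0.00012). Among 26 matrix and protease genes 2 rose and 1 fell. Plau, the urokinase plasminogen activator, was read on no M array and in DB#2 at -0.67, -1.55 and -2.03, at least 7.33-fold above M (adjusted p = 3.41e-05). It was also read on 1 of 4 D, 2 of 4 DB#1 and 2 of 3 DB#3 arrays. Lama5, a laminin alpha chain of basement membranes, fell by 2.11 (SE 0.19, adjusted p = 5.88e-07) from 1.36, 1.32 and 1.64 to -0.88, -0.40 and -0.75, and it was 2.08 lower than in DB#1 and DB#3 (adjusted p = 5.8e-08).

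Adhesion and cytoskeleton genes changed singly and in both directions. Of 19 integrins and cadherins 2 rose and 3 fell, beside 3.12% called higher and 2.2% lower over all genes tested, and the list medians were -0.07 for these, 0.02 for actin and contractile genes and 0.15 for tubulins. F11r, the junctional adhesion molecule JAM-A, fell by 1.81 (SE 0.26, adjusted p = 0.000166), Itga1, a collagen receptor subunit, by 1.40 (SE 0.32, adjusted p = 0.0119), while Itga4 rose by 0.77 ± 0.20 and L1cam, a neural adhesion molecule, by 1.08 ± 0.30 (adjusted p = 0.0391, 0.22 on slide 2 and 1.62 on slide 1). Among 17 actin and contractile genes 3 rose, namely Fscn1, Myl9 and the filament-capping gene Capg (1.08 ± 0.24), and 2 fell, Tpm1 by 0.53 and Cnn2 by 1.01. Tubb2b, a beta-tubulin of developing neurons, went the other way from its course in the related lines. It read -0.71, -0.30 and -0.26 in M and -2.50, -2.38 and -1.91 in DB#2, a fall of 1.84 (SE 0.21, adjusted p = 1.25e-05), but 2.10 to 2.94 in DB#1, 2.36 to 2.80 in DB#3 and 1.46 to 1.93 in D. DB#2 was lower than DB#1 and DB#3 by a difference of -4.79 (adjusted p = 9.2e-12), with no overlap between DB#2 and any other melanoma line. Tubb3, the neuronal beta-tubulin, rose by 1.31 ± 0.27 (adjusted p = 0.00519), and the other 13 of the 15 tubulins tested were not called.

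Genes of neurites and synapses were called often and without a common direction, with 5 of 23 tested higher and 5 lower. The shares over all genes tested were 3.12% higher and 2.2% lower. Beside the falls of Lrrc4b and Dpysl5, the synaptic adhesion genes Nlgn2 and Nrxn2 fell. Nlgn2 read 1.33, 1.39 and 1.40 in M and 0.12, -0.12 and 0.15 in DB#2 (-1.32 ± 0.16, adjusted p = 2.29e-05), and Nrxn2 read 0.03, 0.18 and 0.34 in M and -1.27, -1.01 and -0.98 in DB#2 (-1.27 ± 0.16, adjusted p = 5.1e-05). Epha4, a receptor for ephrins, fell by 1.57 (SE 0.45, adjusted p = 0.048). The rises were those of Crmp1 (1.67 ± 0.17, adjusted p = 4.02e-06), Plxna4, a co-receptor for semaphorins (1.51 ± 0.25), Dpysl3 (0.94 ± 0.18), and of Gap43, a growth-cone protein, and the repellent ligand gene Sema3a, both read in DB#2 and on no M array. Gap43 stood at -2.56, -2.92 and -2.87 in DB#2, at least 2.85-fold above M, and Sema3a at least 1.38-fold. Crmp1 was 1.59 lower in DB#2 than in DB#1 and DB#3 (adjusted p = 6.1e-07), and Plxna4 2.17 higher (adjusted p = 1.1e-06).

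Growth and stress lists held few called members, though Cdkn1c and Ddit4l were among the leading rises. Over all genes tested, 3.12% were called higher and 2.2% lower. None of 40 cell cycle and replication genes was called, with a median of 0.07 and a range from -0.41 to 0.56, and Mcm6, a helicase subunit, differed by 0.16 ± 0.11. Of 18 CDK inhibitors and p53 targets 1 rose, Cdkn1c, and 1 fell, Gadd45g (-1.05 ± 0.19, adjusted p = 0.00216), while Cdkn1a, the inhibitor p21, differed by 0.94 ± 0.38 (adjusted p = 0.183). Ddit4l was the single gene called among 32 of the ATF4 and unfolded protein response. None of 17 feedback targets of MAPK and WNT signalling was called. Among 28 genes of TGF-beta, BMP and dormancy regulators 3 rose: Gas6, the ligand of the TAM receptor kinases, from -4.02, -5.04 and -5.34 in M (read on 1 of 3 arrays) to -0.15, 0.22 and -0.15 in DB#2 (4.77 ± 0.60, adjusted p = 3.34e-05), its receptor gene Tyro3 by 0.60 ± 0.15 and the retinoic acid receptor gene Rarb by 1.05 ± 0.20 (adjusted p = 0.00298). Axl, another Gas6 receptor, differed by -0.76 ± 0.44 (adjusted p = 0.405). Of 19 melanoma state regulators Sox9 rose by 0.47 ± 0.13, and Tead2 and Tead4, partners of Yap, fell by 1.02 and 0.62. These 3 calls were each lost without at least 1 of the 6 arrays, and for Tead4 another probe gave 0.03. The lysosome and cathepsin list had 1 higher and 1 lower of 21 (Ctsk 1.23 ± 0.32, Lipa -0.69 ± 0.17), and the lipid list had the same counts of 29 (Dhcr7 0.55 ± 0.15, Abhd6 -0.58 ± 0.13).

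The study singled out proteins that changed in both of its dormancy models, and their genes with Adssl1 formed a list of 12, chosen in part on these cells and thus not independent evidence of direction. In DB#2, 1 of the 12 rose, Capg, and 1 fell, Eml2, a microtubule-binding protein (-0.59 ± 0.17, adjusted p = 0.0465), beside 3.12% and 2.2% over all genes tested. The call of Eml2 was lost when any 1 of the 6 arrays was left out, and that of Capg without M replicate 2, M replicate 3 or DB#2 replicate 1. The glycolytic members Aldoa, Tpi1, Eno1 and Pgk1 differed by 0.43, 0.56, 0.36 and 0.20 without passing the test, and so did Septin9 (0.26), Eef2 (0.24), Gyg (0.33), Vps35 (0.15) and Selenbp1 (-1.14 ± 0.46, adjusted p = 0.187). Adssl1, the muscle isoform of adenylosuccinate synthase, read -1.73, -1.39 and -0.79 in M and -1.18, 0.09 and 0.03 in DB#2 (0.95 ± 0.39, adjusted p = 0.196), and it was 2.20 lower than in DB#1 and DB#3 (adjusted p = 0.00019).

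**Figure D3:**
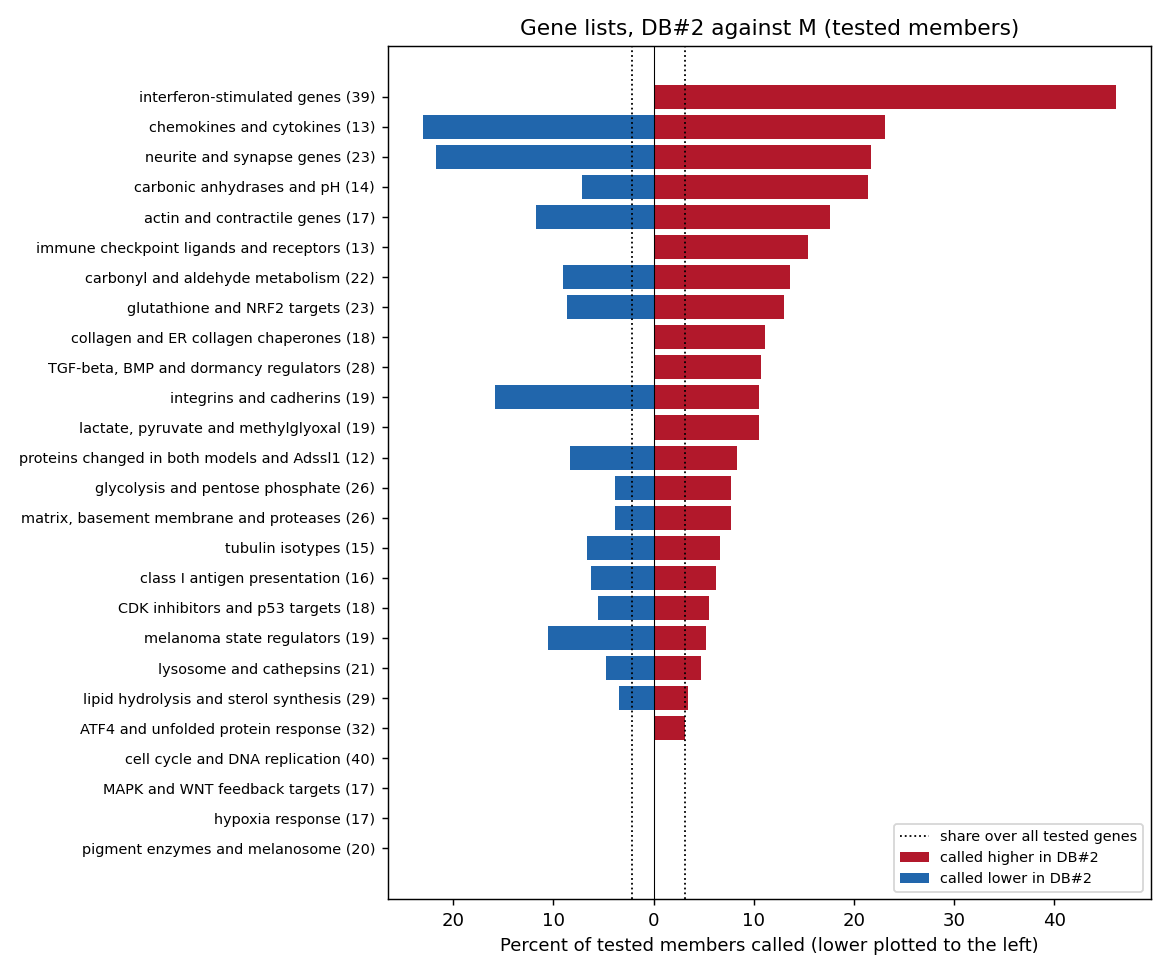
Share of the tested members of each gene list (number tested in brackets) called higher in DB#2 than in M (red, to the right) or lower (blue, to the left), with dotted lines at the shares over all tested genes, 3.12% and 2.2%. Interferon-stimulated genes have the longest bar, 18 of 39 higher with none lower, and 4 lists have no called member.

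Markers of other cell types were checked, since the line came from a brain site. In bulk RNA, fewer cells of a type and less RNA per cell cannot be told apart. Called in DB#2 were 0 of 4 neuron markers tested, 1 of 5 astrocyte, 0 of 4 oligodendrocyte and 0 of 5 microglia and macrophage markers. Of the other types, 0 of 3 leukocyte, 1 of 2 endothelial and 3 of 5 fibroblast and pericyte markers were called. The astrocyte and endothelial calls were rises, and those of fibroblasts and pericytes were 2 rises and 1 fall. Over all genes tested, 3.12% were called higher and 2.2% lower. The neuron markers tested against M ranged from -0.14 to 1.91. Of 4 neuron markers tested in each comparison, 1 was called higher in DB#2 than in DB#1 and DB#3, and 1 than in D. In those comparisons 11.9% and 11.5% of all genes were called. The defining leukocyte gene Ptprc was well above background on none of the 6 arrays. Gfap, the astrocyte filament, differed by 0.00 ± 0.21, but Gja1 (connexin 43) rose by 2.14 ± 0.22 (adjusted p = 3.3e-06), from -2.42, -2.36 and -3.21 to -0.15, -0.60 and -0.82. Vwf rose by 4.01 ± 0.59 (adjusted p = 0.000224) and was read on 1 of 3 M arrays, with 6 of the 8 endothelial markers read on no array of either line. Vwf was also read on every array of D, DB#1 and DB#3. Dcn (decorin), at -0.19, -1.36 and -2.39 in DB#2 and at least 7.87-fold above M, and Pdgfrb, at least 2.84-fold above M, were read on no M array. Pdgfrb was also read on every array of D, DB#1 and DB#3, whereas Dcn was read on 1 of 4 D arrays and on no DB#1 or DB#3 array. Pdgfra was read on every M array and on no DB#2 array, and it was at least 2.47-fold lower. It was also read on some arrays of D, DB#1 and DB#3. Col3a1, Lum and Rgs5 were read on none of the 6 arrays. The log2 of the summed signal of the fibroblast and pericyte list lay between -0.09 and 0.25 on the M arrays and between 0.87 and 1.32 on the DB#2 arrays, and that of the endothelial list between -2.10 and -1.90 and between -0.42 and 0.96. The sums of the oligodendrocyte, microglia, leukocyte, neuron and astrocyte lists overlapped between the lines. Whether a few cells of such types contributed to the matrix values was not tested.

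More genes were called between DB#2 and the other dormancy-derived lines than between DB#2 and M, in tests that rest on more arrays. The test against the mean of DB#1 and DB#3 called 2526 genes and that against D called 2367. Of the genes called against M, 1094 were also tested against DB#1 and DB#3, and 627 of these were called there too. Of those higher than M, 327 were also higher than DB#1 and DB#3 and 35 were lower than they are; of those lower than M, 260 were also lower and 5 were higher. Among genes read on every array, those furthest above DB#1 and DB#3 included Irgm2, Rtp4, Ddit4l (3.21) and Lsp1, an actin-binding protein of leukocytes (3.29, adjusted p = 8e-08). Furthest below were Tubb2b, Fkbp10, H2-DMb1 (-3.88, adjusted p = 1.8e-08), Lrrc4b (-3.68) and Lmo1 (-3.48). H2-DMb1, a chaperone for class II peptide loading, read -2.56, -3.33 and -2.42 in M and -3.89, -3.32 and -4.16 in DB#2, which overlap at -3.33 and -3.32 (-1.01, adjusted p = 0.0787), while it lay between -0.35 and 0.59 on the DB#1 and DB#3 arrays.

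Position along the genome was described for the 13065 tested genes that the RefSeq table places, with the median of all of them, 0.04, subtracted. The genes of chromosomes 3, 9, 12, 13 and 17 were on the whole lower in DB#2, with medians of -0.19, -0.19, -0.18, -0.18 and -0.22, and they were lower on each of the 3 slides. Chromosomes 2, 15 and 16 had medians of -0.07, -0.08 and -0.08, and all others lay between 0.02 and 0.13, chromosome 4 being the highest. On chromosome 17, 23.3% of 651 genes lay above 0 before the subtraction, beside 55.8% over all placed genes, with 12 called higher and 46 lower. Array by array the chromosome 17 medians were -0.22, -0.24 and -0.24 in DB#2 and between -0.01 and 0.01 in M. No test was run on these medians, since neighbouring genes are not replicates.

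**Figure D4:**
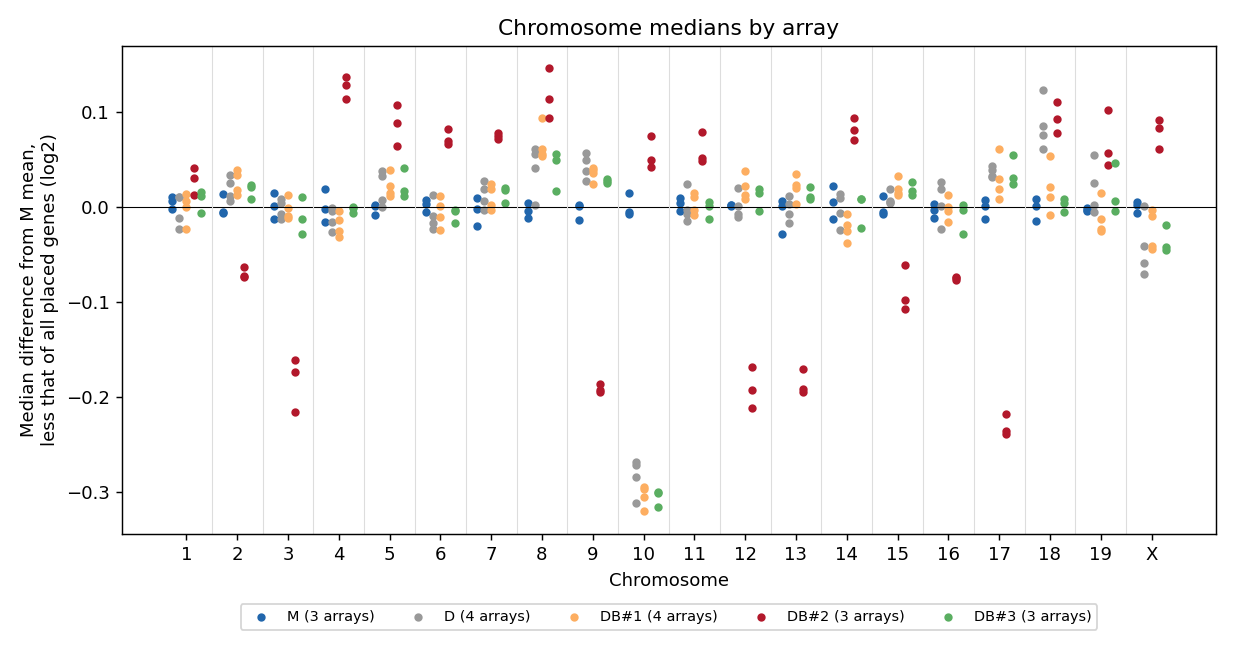
Median difference of each chromosome's tested genes from the mean of the 3 M arrays, less that of all placed genes (y axis, log2), with 1 point per array of the 5 melanoma lines. The DB#2 points lie below all others on chromosomes 3, 9, 12, 13 and 17 and at 0.04 to 0.08 on chromosome 10, where D, DB#1 and DB#3 lie between -0.32 and -0.27.

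The other lines did not share this pattern. Chromosomes 3, 9, 12, 13 and 17 had medians between -0.02 and 0.04 in D, DB#1 and DB#3 against the same M arrays. Chromosome 10 showed the reverse: its 641 genes had a median of -0.29 in DB#1, -0.29 in DB#3 and -0.28 in D, but 0.06 in DB#2, which left DB#2 0.36 above DB#1 and DB#3. Within chromosomes the shift of DB#2 was not everywhere uniform. On chromosome 3 the first 478 genes, from Zfhx4 to Wdr47, had a median of -0.24 with 20.9% above 0 before the subtraction, and the last 159, from Clcc1 to Wls, a median of 0.14 with 69.2% above 0; this boundary was chosen after the values were seen. In runs of about 50 neighbouring genes, 251 in all and here without the subtraction, the highest median was 0.35, at the start of chromosome 2 from Fam171a1 to Bmi1, and the lowest -0.29, on chromosome 13. DNA content was not measured on these arrays, and its part in these medians was not tested. The study measured copy number in its melanoma lines separately, and those data were not used here. By the study's account, the global pattern by chromosome arm was alike in dormant and parental cells, while several focal segments differed. It also reported deletions seen only in the dormant melanoma cells for genes of some proteins that were lower there. Among these genes was Ube2n, which lies on chromosome 10.

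**Figure D5:**
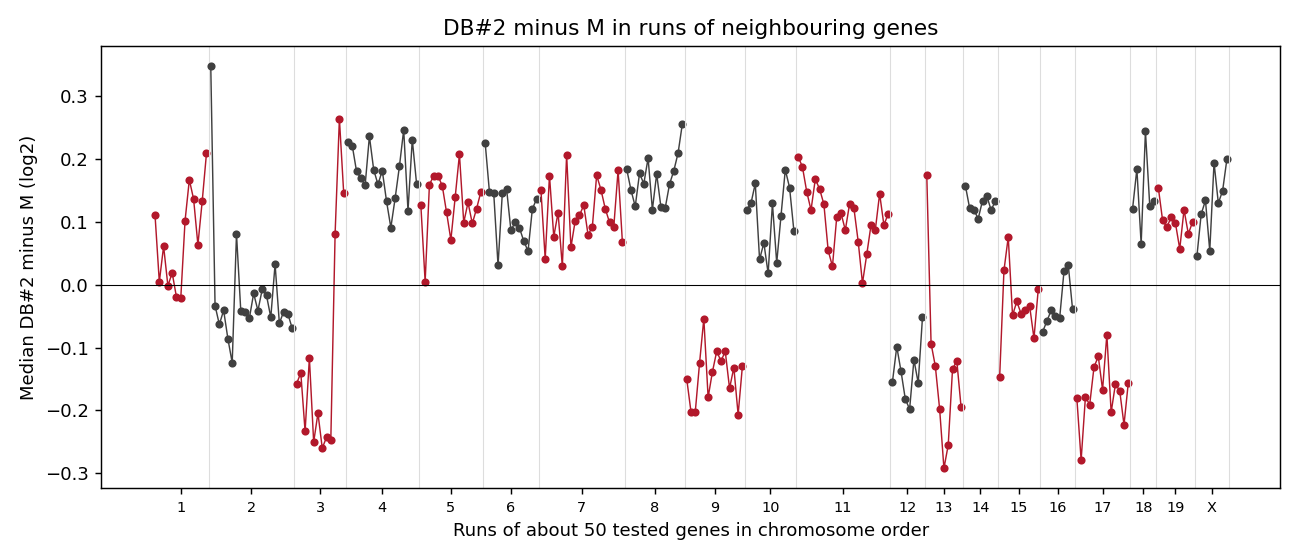
Median log2 difference between DB#2 and M, with nothing subtracted (y axis), in 251 runs of about 50 tested genes in chromosome order (x axis), with alternating colours for successive chromosomes. Runs of chromosomes 9, 12 and 17 all lie below 0, and on chromosome 3 the first 9 runs lie below 0 and the last 3 above.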

How the data were processed

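Total RNA was measured on 24 single-colour Agilent arrays of 7 mouse cell lines. The authors deposited a scanner table per array, made with Agilent Feature Extraction 10.7.3.1 per the labels, in which gProcessedSignal is a background-corrected intensity on a linear scale, not scaled between arrays; a deposited series table held the same values (1511424 of 1511424 equal). No column belonged to an unmapped sample, and arrays have no read depth, so their number limits the precision. The study names no test for the arrays.

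Outlier spots were left out (117 of 56605 probes lost), spots of a probe averaged, and the log2 intensity less the array's 75th percentile was used. The brightest probe stood for a gene. Accessions, matched without version to a RefSeq table of GRCm38.p6 (matched were 29269 of 29567 NM and 2402 of 2473 NR entries, and among predicted ones 463 of 1220 XM and 783 of 2543 XR), gave 22881 symbols. The array design refers to mm9, so that table served for names and gene order only.

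limma 3.58.1 in R 4.3.3 (lmFit, eBayes) was fitted to all 24 arrays with line and slide (15 residual degrees of freedom). A gene was tested if all arrays of at least 1 of the lines compared read it well above background, with Benjamini-Hochberg adjustment within each comparison. The script was checked on simulated data. Values with ± are log2 estimates with their SE.

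Named genes were the 12 largest rises and falls among called genes with a symbol read on every array without overlap, the 5 largest bounds each way, up to 4 called members with the largest change in each list, the study's shared proteins, and the 5 largest rises and falls against DB#1 and DB#3. Some genes these rules select are counted but not reported here by name. Other list members and markers were named after their values were seen. The members and lists were chosen with earlier results of these data known. Alternatives were scaling (quantile, detected probes, none), normexp with an offset of 50 (on gMedianSignal, as the tables hold no mean signal), filters, probe choice, array subsets, slide and replicate blocks, array weights and single arrays left out.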

Additional observations from a re-analysis of the deposited data

Results flagged for a closer look

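For 57 of the 86 named genes called in DB#2 against M, the direct test against the mean of DB#1 and DB#3 was also passed, and for 21 of them DB#1 and DB#3 both lay on the other side of M from DB#2. Some of the 86 were named because of large differences in this same test, so the 57 are not an independent count. Over all genes called against M and tested there, 627 of 1094 passed. No such share over all called genes is given for the 21. Of the 21, 20 are given here by name. The side of M is the sign of the fitted difference from M, whether or not that difference was called. The differences below are DB#2 minus the mean of DB#1 and DB#3, in log2 units.

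Higher in DB#2 and lower than M in both other brain-site lines were the cell cycle inhibitor gene Cdkn1c (5.30), Lyl1 (3.90), the interferon-stimulated genes Rtp4 (3.27), Usp18 (3.64), Irf7 (2.58) and Irgm2 (3.43), the cytokine gene Il18 (2.79), the retinoic acid receptor gene Rarb (1.78), and Lsp1 (3.29), which is known from leukocytes. Cdkn1c was well above background on 1 of 4 DB#1 arrays and 2 of 3 DB#3 arrays, and Lyl1 and Usp18 on 2 of 3 DB#3 arrays, so the sizes of these differences rest in part on unread probes. Usp18 and Il18 were called lower than M in both other lines and Lyl1 in neither. Cdkn1c was called lower than M only in DB#1, and Rtp4 and Irf7 only in DB#3.

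Lower in DB#2 and higher than M in the other brain-site lines were Qpct (-6.29), Nsg1 (-5.82), Tubb2b (-4.79), Cx3cl1 (-3.79), Lrrc4b (-3.68), Lmo1 (-3.48), Galnt10 (-3.37), Chn2 (-3.31), Ddah2 (-3.20), Tead2 (-1.52) and Car14 (-0.79). Qpct, Nsg1 and Cx3cl1 were well above background on no DB#2 array, so that their differences are fitted values and not bounds. The calls of Tead2 and Car14 against M were among those lost when a single array was left out. Qpct and Lmo1 were called higher than M in both DB#1 and DB#3. Cx3cl1, Lrrc4b, Chn2, Ddah2, Tead2 and Car14 were called against M in neither.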

How the results depend on the processing

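The count of genes called between DB#2 and M moved from 1113 by more than 1.5 times in several settings: 720 without the slide term, 528 with only the 6 arrays of the comparison, 622 without the filter on dim probes (which adds genes to the adjustment), 1973 with no scaling between arrays and 1968 with array weights. Leaving out an array of either line gave 613 to 882, with 613 without M replicate 2, 626 without M replicate 3 and 617 without DB#2 replicate 2, and without D replicate 3, the array that stood apart, 1537. Quantile normalization gave 749 higher and 745 lower genes, the 75th percentile over detected probes 800 and 847, and no scaling 1790 and 183, the last with the median of all genes at 0.25, so that the share of rises depends on the scaling (58.7% higher in the main analysis, 90.7% without scaling). The replicate numbers did not pair the arrays: deviations of same-numbered DB#2 and M arrays correlated at 0.852, -0.555 and -0.565. A replicate block in place of slide gave 761 called genes, and with the slide block 2292.

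Against DB#1 and DB#3 the count was 1519 without the slide term and 1274 to 2134 with a DB#2 array left out (1320 without replicate 2, 1274 without replicate 3), in place of 2526. Against D it was 1310 without the slide term and 1360 to 1662 with a DB#2 array left out (1360 without replicate 2, 1483 without replicate 3) and 2160 without D replicate 3, in place of 2367.

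Of the 86 named genes that were called, 56 kept the call in each of the 20 settings that tested them, and 0 of the values changed sign. The filter that needs a reading in both lines tested and called 66 of the 86. Genes read in 1 line only, such as Myl9, Mrap, Emilin1 and Ece1, were not tested under it. Without 1 of the 6 arrays, 21 of the 86 lost the call: Tead2, Tead4, Sox9, Oasl1, Il33, L1cam, Cnn2, Abhd6, Dhcr7, Eml2, Psmb10, Lgals9, Car6, Car14, Itga1, Capg, Sema3a, Tyro3, Ctsk, Lipa and Gstm1. The cause of these differences was not tested. Signal over background limits genes read in 1 line to bounds.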
